A study of Mus musculus with 48 samples.

Results

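Immune gene expression in epididymal white fat was compared between mice on a Western diet (n = 7 libraries) and mice on a starch/oleate diet (n = 9 libraries). These 16 libraries, of 48 in the series, were found by their titles. The pair was taken up because both diets differ from chow in many genes, so the size of those differences is a description and carries no test of the choice. All mice were C3H/HeOuJ, an inbred strain whose toll-like receptor for endotoxin is intact, and each had eaten its diet freely for 6 months. The starch/oleate diet was a custom one, in which starch supplied the carbohydrate and oleate, the main fatty acid of olive oil, the fat. The Western diet was a commercial adjusted-fat diet, and the kinds of carbohydrate and fat it holds are not given in the sources used here. For both, the design text gives 42% of calories as carbohydrate and 42% as fat. The diets come from different manufacturers and may differ in carbohydrate and fat as well, and these cannot be told apart. Mice on a standard chow (n = 8 libraries) served as the control. Ages were not given. Of 547 endogenous genes on the NanoString nCounter Mouse Immunology panel, which counts barcoded probes hybridised to RNA without amplification, the 491 with a mean count of at least 10 were tested.

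White fat stores triglyceride in adipocytes, whose identity depends on the nuclear receptor encoded by Pparg. Around them lie capillaries, progenitor cells and immune cells, of which macrophages are the most common in obesity. Macrophages of expanding fat gather around dying adipocytes, take up lipid, iron and immune complexes, and carry activating and inhibitory receptors that set how strongly they respond. The tissue was read in bulk, so that fewer cells of a type and less RNA per cell cannot be told apart for any gene below.

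Total gene counts ran from 424992 to 761289 in the Western libraries and from 575868 to 755967 in the starch/oleate libraries, a difference that did not pass (exact permutation test, two-sided p = 0.318). Counts are given after scaling each library to the geometric mean of 14 reference genes. Of these reference genes 5 themselves differed between the diets, with differences between -0.23 (Gapdh) and 0.36 (G6pdx) on the log2 scale. The assay's own positive controls, RNAs added at known amounts, gave a ratio of control A to control B that does not depend on the tissue. It was 3.27 to 3.43 in the Western libraries and 3.11 to 3.28 in the starch/oleate libraries (exact permutation test, two-sided p = 0.000524). The 2 ranges met only at their edges, so an assay difference that goes with this ratio cannot be told apart from the diets. A fit with this ratio as a covariate was therefore set beside the results. Western library 2 stood apart: it was the lowest of the 16 libraries in 239 genes and the highest in 80. Libraries 2 and 6 of each diet lay over 3 median absolute deviations above the series' median in a list of epithelial genes. The 4 defining epithelial markers, all above the negative probes, summed to between 241 and 5456 on starch/oleate (median 317) and between 175 and 3988 on the Western diet (median 240.3). The 3 defining adipocyte markers (Cfd, Pparg and Cd36) were likewise above the negative probes in every group, as the labelled tissue requires.

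In the Western diet libraries 32 genes were higher than in the starch/oleate libraries (6.52% of the genes tested) and 51 were lower (10.4%), 83 in all (16.9%), at an adjusted p below 0.05. Of 24 macrophage genes 6 were lower and none was higher, and of 17 natural killer and cytotoxic genes 4 were lower and none was higher. With the control ratio as a covariate, Fcgr2b was the only one of these lower genes still called. Among the higher genes were Cdh5 of endothelium, Cd34 of progenitor cells and Pparg, whose product drives adipocyte genes, while Cfd and Cd36, the other adipocyte markers, did not pass. Over all genes tested the median log2 difference was -0.10. Against chow, 161 genes were higher and 39 lower on the Western diet, 200 in all (40.7%), and 237 were higher and 59 lower on starch/oleate, 296 in all (60.3%). These comparisons share the chow libraries.

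The split between higher and lower genes depended on the scaling. With TMM scaling, which centres the endogenous genes and moves their median difference to 0.01, 55 genes were higher and 39 lower, so that 58.5% of calls were higher against 38.6% with the reference genes. DESeq2, with its own size factors, called 68 higher and 42 lower. Against chow TMM scaling gave 116 genes higher and 55 lower on the Western diet, and 168 higher and 114 lower on starch/oleate. All 83 genes kept their direction with TMM scaling and 70 kept their call. With the control ratio as a covariate 21 of the 83 kept their call and all kept their direction, and with scaling to the positive controls 24 did. Without the libraries high in epithelial genes 44 kept it. Leaving out single libraries gave between 52 genes (starch/oleate library 1 or 8 left out) and 116 (Western library 4 left out). Without Western library 2 the counts were 31 higher and 28 lower, and 49 of the 83 genes kept their call. With starch/oleate library 6 left out 106 genes were called. The call held with each of the 16 libraries left out in turn for 37 genes, and also under each of the 9 other settings that tested the gene for 12 (8 settings for Il1a, which is too low for the stricter filter). These 12 were Cdh5, Cd34, Pparg, Traf4 and Abcb10, which were higher on the Western diet, and Tfrc, Fcgr2b, Il1a, Cd4, Il12rb2, Clec5a and Cd97, which were lower. A setting that ended a call is named beside the gene below, except where leaving out a library had already ended it.

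**Figure D1:**
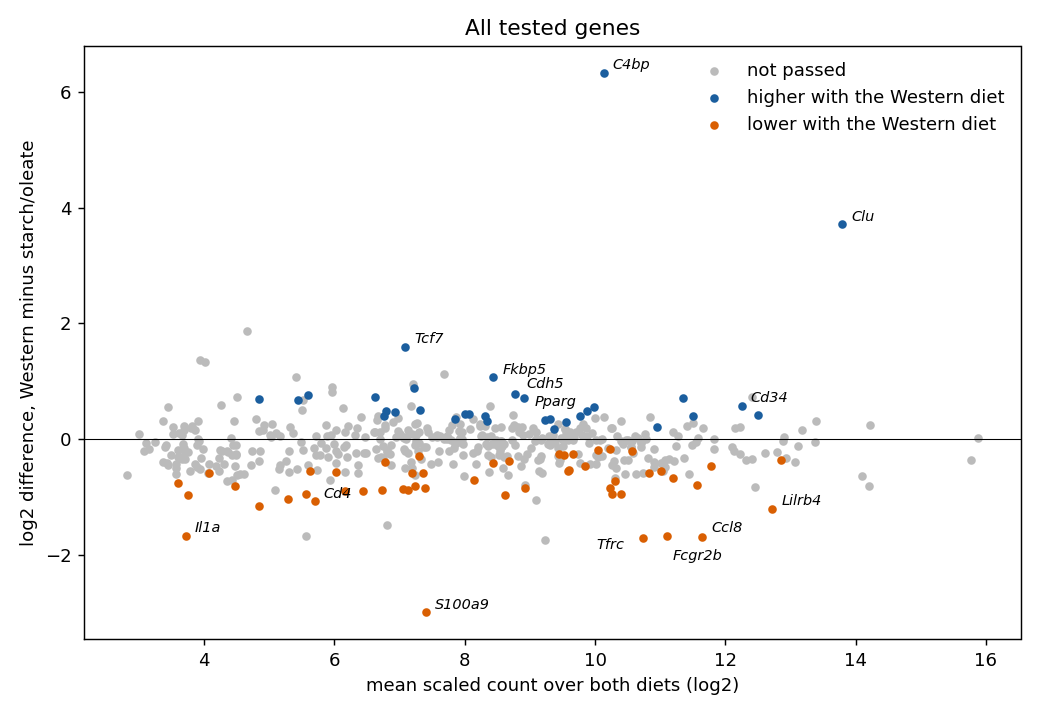
Each point is 1 of the 491 tested genes; the x axis gives the mean scaled count over both diets on a log2 scale and the y axis the log2 difference, Western minus starch/oleate. Blue points (32 genes) passed the test as higher on the Western diet, orange points (51 genes) as lower and grey points did not pass; C4bp and Clu, at the top, differ by 0.68 and -0.15 without Western library 2.

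The receptor genes Fcgr2b and Tfrc showed the smallest p-values of the comparison. Fcgr2b encodes the inhibitory receptor for immunoglobulin G, which restrains macrophages and B cells that bind immune complexes. Tfrc encodes transferrin receptor 1, through which cells take up iron. Both were lower in every Western library than in any starch/oleate library, a separation that was seen downward in 0.611% of all genes. Their promoter windows are shown because these genes carried the clearest difference between the diets. The sequences are from RefSeq on build GRCm38.p6, from 250 bases before to 50 bases after the annotated start, read 5′ to 3′ on the gene's strand. They are those of the reference build and were not read in the C3H/HeOuJ mice, which may differ from it. The Tfrc window is chr16:32608646-32608945 on the plus strand and the Fcgr2b window is chr1:170976022-170976321 on the minus strand. Capitals mark ACGTG, the core of the hypoxia response element, searched on both strands.
Tfrc promoter: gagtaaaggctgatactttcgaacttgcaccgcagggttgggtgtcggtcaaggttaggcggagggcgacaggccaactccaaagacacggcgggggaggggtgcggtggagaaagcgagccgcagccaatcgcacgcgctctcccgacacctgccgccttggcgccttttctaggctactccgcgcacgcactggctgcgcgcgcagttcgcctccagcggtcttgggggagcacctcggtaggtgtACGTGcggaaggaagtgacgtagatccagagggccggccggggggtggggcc
Fcgr2b promoter: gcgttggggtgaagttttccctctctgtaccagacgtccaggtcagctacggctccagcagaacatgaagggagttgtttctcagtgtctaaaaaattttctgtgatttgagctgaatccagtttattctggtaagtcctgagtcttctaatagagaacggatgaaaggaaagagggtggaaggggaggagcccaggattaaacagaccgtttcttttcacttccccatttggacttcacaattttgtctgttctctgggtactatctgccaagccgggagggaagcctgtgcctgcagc
The Tfrc window held 1 ACGTG, which begins 2 bases before the start and does not lie in an E-box (CACGTG). A second annotated Tfrc start has a window that overlaps the first, and there the same ACGTG lies 228 bases before the start. Neither the E-box nor GAGGAA, the core of the motif of the myeloid factor PU.1, was found in the Fcgr2b window on either strand, nor was ACGTG. Among 32851 mouse promoter windows of this length 19.6% held ACGTG (13.6% outside an E-box), 7.15% CACGTG and 28.3% GAGGAA. A match of letters is a description and not a binding site.

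Scaled Fcgr2b counts ranged from 2007 to 4881 (median 3318) on starch/oleate and from 781 to 1438 (median 969) on the Western diet. Chow libraries, at 1412 to 2360.4 (median 1829), overlapped both at the edges. The Western and starch/oleate libraries did not overlap, and Western Fcgr2b was 3.203-fold lower (log2 difference -1.68 ± 0.20 (SE), adjusted p = 7.46e-08, below the starch/oleate mean in 7 of 7 libraries). Against chow the difference was 0.85 on starch/oleate (adjusted p = 0.000173) and -0.83 on the Western diet (adjusted p = 0.00119), so that the gene lay above chow on one diet and below it on the other.

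Tfrc ranged from 1539 to 4066 (median 2542) on starch/oleate, from 605 to 1169 (median 729.7) on the Western diet and from 688 to 1849 (median 972) on chow. Again the Western and starch/oleate libraries did not overlap, while the Western and chow libraries did. The Western level was 3.27-fold lower than that on starch/oleate (log2 difference -1.71 ± 0.21 (SE), adjusted p = 7.46e-08). Starch/oleate exceeded chow by 1.29 (adjusted p = 8.77e-07), whereas the Western difference from chow, -0.42, did not pass (adjusted p = 0.106). Hfe, whose protein binds transferrin receptor 1 and limits iron uptake, differed by 0.0069 with a 95% interval of -0.17 to 0.18. The mitochondrial transporter gene Abcb10, which serves haem synthesis, was 1.39-fold higher on the Western diet (0.48 ± 0.13 (SE), adjusted p = 0.00764), with 99.1 and 203 as its lowest and highest Western counts against 75.8 and 126 on starch/oleate. The ranges of Abcb10 overlap between the diets.

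**Figure D2:**
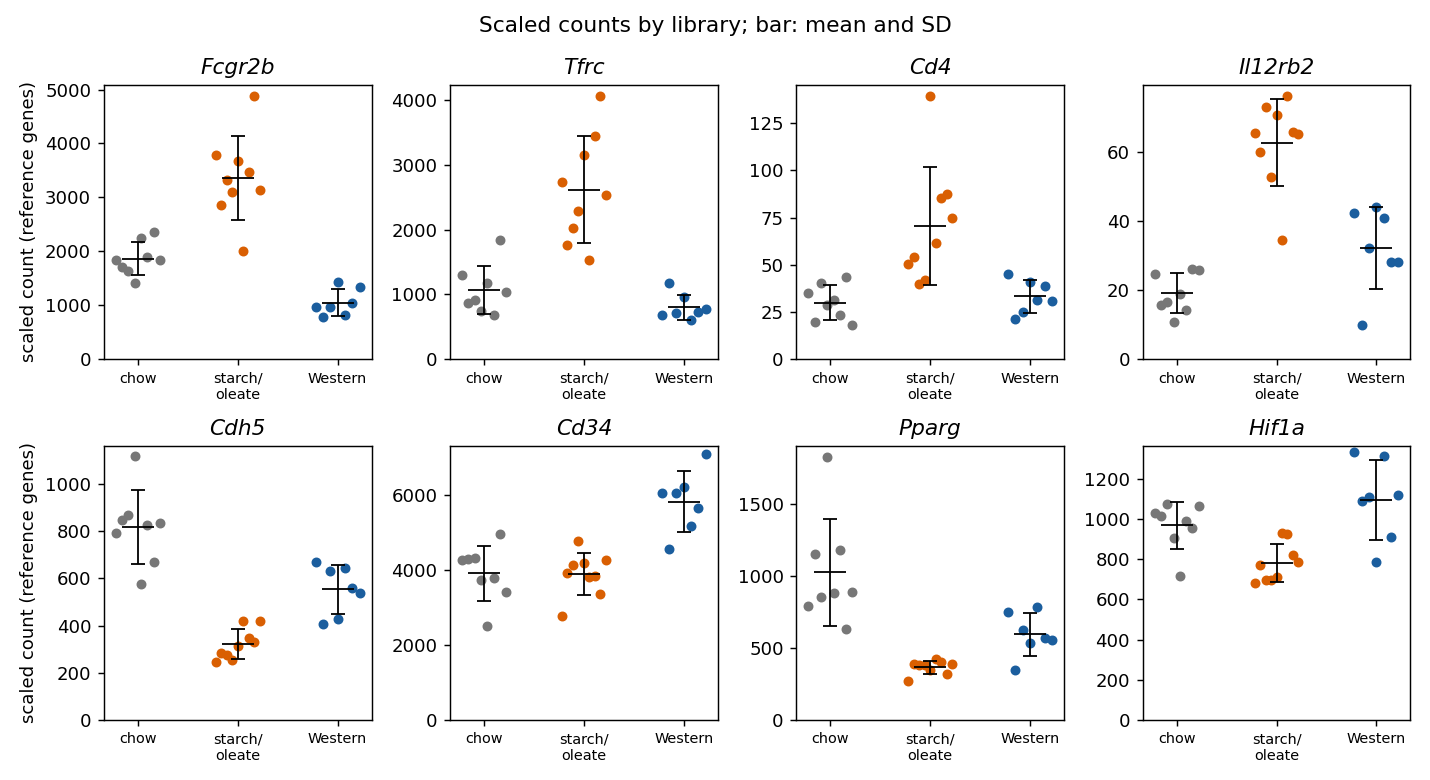
Scaled counts of 8 genes in each library on chow (grey), starch/oleate (orange) and the Western diet (blue); the y axis is the count scaled to the reference genes and starts at 0, and bars give the mean and SD. The Western and starch/oleate points do not overlap for Fcgr2b and Tfrc, and overlap in part for the other 6 genes.

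Macrophage genes were lower on the Western diet where they differed. Of 24 macrophage genes tested 6 were lower (Fcgr2b, Lilrb4, Msr1, Fcgr3, Ly96 and Ccr2) and none was higher, with a list median of -0.45 beside -0.10 over all genes. The share lower over all genes tested was 10.4%. Without Western library 2, in which the sum of Emr1, Csf1r and Itgam was 2399 against 7516 or more in each starch/oleate library, 3 of the 24 were lower (Fcgr2b, Msr1 and Lilrb4) and the list median was -0.33. With the control ratio as a covariate Fcgr2b alone was called, and with TMM scaling 6 genes were lower and 1 higher.

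Lilrb4, an inhibitory receptor of myeloid cells, ranged from 4721 to 11649 (median 9547) on starch/oleate and from 1088 to 6319 (median 4135) on the Western diet. It was 2.305-fold lower on the Western diet (-1.20 ± 0.32 (SE), adjusted p = 0.00764). The ranges overlapped, since starch/oleate library 6, at 4721, lay below the highest Western library, and the call was lost with the control ratio as a covariate (adjusted p = 0.0672). Msr1, the class A scavenger receptor that takes up modified lipoproteins, was 1.93-fold lower (-0.95 ± 0.27 (SE), adjusted p = 0.0157), ranging over 274 to 1149.8 (median 909.5) on the Western diet and 1109 to 2507 (median 1516) on starch/oleate. Its call was lost with scaling to the positive controls, the control ratio as a covariate or the libraries high in epithelial genes left out (adjusted p up to 0.0708).

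The estimated differences of the other receptors for immunoglobulin G were smaller than that of Fcgr2b. Fcgr3, an activating low-affinity receptor, was 1.74-fold lower (-0.80 ± 0.26 (SE), adjusted p = 0.0287), a call that was lost without any 1 of starch/oleate library 1, and Western libraries 1, 2 and 6 (adjusted p up to 0.0721). The high-affinity receptor gene Fcgr1 differed by -0.29 (adjusted p = 0.543) and the activating receptor gene Fcgr4 by -0.62 (adjusted p = 0.253). Fcer1g, which encodes the signalling chain that the activating receptors share, differed by -0.60 (adjusted p = 0.0771). None of these 3 passed. Whether their differences, or that of Fcgr3, depart from that of Fcgr2b was not tested. All 4 activating-side genes were above chow on starch/oleate, by 1.37 (Fcgr3), 1.45 (Fcgr1), 1.87 (Fcgr4) and 1.45 (Fcer1g), each with an adjusted p below 0.05.

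Ccl8, a chemokine gene of tissue-resident macrophages, was 3.22-fold lower on the Western diet (-1.69 ± 0.48 (SE), adjusted p = 0.0157). Its counts ranged from 2666 to 8319 (median 5105) on starch/oleate, from 893 to 2258 (median 1344) on the Western diet and from 539 to 2300.1 (median 905) on chow. The diets did not overlap, and the Western libraries lay within the chow range. The call was lost with the control ratio as a covariate (adjusted p = 0.0514). Of the 5 resident macrophage genes Ccl8 was the only one called, beside 16.9% of all genes tested. Cd163, the scavenger receptor for haemoglobin, differed by -0.12 (95% interval -0.61 to 0.36), and Marco, a scavenger receptor for particles, by -1.48 (adjusted p = 0.0502), just outside the threshold. Marco held a high library in each diet, 526.2 in starch/oleate library 8 and 165 in Western library 4.

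Ly96, whose product is the partner of the endotoxin receptor Tlr4, was 1.44-fold lower (-0.53 ± 0.17 (SE), adjusted p = 0.0287), and Tlr4 itself differed by -0.35 (adjusted p = 0.0622). Ly96 lost its call without any 1 of starch/oleate library 8, and Western libraries 1, 2 and 6. Ccr2, the chemokine receptor by which monocytes leave the blood, was 1.47-fold lower (-0.56 ± 0.18 (SE), adjusted p = 0.0332) but was not called with TMM scaling, scaling to the positive controls, the control ratio as a covariate, the libraries high in epithelial genes left out or DESeq2. Nor was it called without any 1 of starch/oleate libraries 1 and 8, and Western libraries 2, 5 and 6. Clec5a, a lectin-like receptor that signals in myeloid cells, was 1.75-fold lower (-0.81 ± 0.20 (SE), adjusted p = 0.00454), ranging over 49.8 to 160.3 (median 110.5) on the Western diet and 139.6 to 241 (median 185) on starch/oleate. Ranges overlapped for Clec5a, which kept its call under every setting run.

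Cd97, an adhesion receptor of leukocytes, was lower on the Western diet than on starch/oleate. Its counts ranged from 1531 to 2924 (median 2501) on starch/oleate, from 1424 to 1891 (median 1752) on the Western diet and from 1600.0 to 2378 (median 2147) on chow. The Western level was 1.47-fold below that on starch/oleate (-0.55 ± 0.11 (SE), adjusted p = 0.000568). The Western diet differed from chow by -0.31 (adjusted p = 0.0216), a call lost with scaling to the positive controls (adjusted p = 0.38) or without Western library 6 (adjusted p = 0.0542). Starch/oleate differed from chow by 0.24 (adjusted p = 0.0442), but the direction depended on the scaling, with -0.035 under TMM (adjusted p = 0.805) and -0.101 under DESeq2 (adjusted p = 0.471). That call was also lost in 11 of 17 fits with a library left out. Fcgr2b kept both its directions and calls against chow under these settings. Libraries of all 3 diets overlap, and starch/oleate library 6, at 1531, lay among the Western libraries.

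The macrophage genes Emr1, Itgax, Trem2 and Cd9 did not pass between the diets, although each was above chow on both (adjusted p below 0.05). Emr1 (now Adgre1), the F4/80 antigen, ranged from 4049 to 6401 (median 5151) on starch/oleate and from 1180.1 to 6901 (median 4964) on the Western diet, a difference of -0.26 with a 95% interval of -0.79 to 0.26. The lowest Western value, 1180, belonged to library 2. Itgax, the integrin CD11c of fat tissue macrophages and dendritic cells, differed by -0.23 (interval -0.89 to 0.43) and Trem2, a lipid-sensing receptor of macrophages in obese fat, by -0.48 (interval -1.08 to 0.13). Cd9, a tetraspanin of the same macrophages, differed by -0.21 (interval -0.56 to 0.13). Of the 4 lipid-associated macrophage genes none was called (16.9% over all genes tested), with a median of -0.30. These intervals leave room for differences of a size called in other genes.

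Natural killer and cytotoxic genes were lower where they differed, but none of the 4 calls was kept with the control ratio as a covariate. Of 17 tested 4 were lower (Gzmb, Klra8, Klrd1 and Xcl1) and none was higher, with a median of -0.43, and without Western library 2 Gzmb and Klra8 remained called. The share lower over all genes tested was 10.4%. The Klra8 probe is named for an activating receptor of natural killer cells. Its counts ranged from 112 to 247 (median 184) on starch/oleate and from 44.1 to 144 (median 97.3) on the Western diet. On chow they ranged from 19.1 to 69.4 (median 39.5). Both diets lay above chow in mean, and the Western level was 1.84-fold below starch/oleate (-0.88 ± 0.24 (SE), adjusted p = 0.00975), a call lost with the control ratio as a covariate (adjusted p = 0.088). Klra8 belongs to a family of closely similar receptor genes and Lilrb4 has a near copy, so whether their probes also counted relatives is uncertain. Whether C3H/HeOuJ mice carry Klra8 itself was not checked, so its probe may have counted relatives alone. Gzmb, the granule protease granzyme B, differed by -0.97 ± 0.24 (SE), adjusted p = 0.00512, but its counts of 6.596 and 12.8 at the lowest and highest Western library were at the level of the negative probes, whose mean count was 7.51 and highest count 21. That call too was lost with the control ratio as a covariate (adjusted p = 0.0728). Klrd1, the CD94 receptor chain, and Xcl1, a chemokine of natural killer cells, differed by -0.58 (adjusted p = 0.0398) and -0.57 (adjusted p = 0.0424), and lost their calls in 7 and 9 of the 16 fits that left a library out, with adjusted p-values up to 0.101 and 0.106. For Klrd1 these were starch/oleate libraries 5, 7 and 8, and Western libraries 2, 3, 6 and 7, and for Xcl1 starch/oleate libraries 2, 3, 5, 7 and 8, and Western libraries 1, 2, 3 and 6.

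T cell genes were lower in 3 of 23 (Cd4 and Cd28 among them) and higher in 1 (Tcf7), near the 10.4% and 6.52% of all genes tested, with a median of -0.41. Cd4, the coreceptor of helper T cells that some mouse macrophages and dendritic cells also carry, ranged from 39.7 to 139 (median 61.4) on starch/oleate, from 21.3 to 45.1 (median 31.2) on the Western diet and from 17.9 to 43.4 (median 29.9) on chow. Only the edges of the 2 fat-rich diets overlapped, and Western Cd4 was 2.101-fold lower (-1.07 ± 0.25 (SE), adjusted p = 0.0032) and within the chow range but for 1 library. Cd3e, a chain of the T cell receptor complex, differed by -0.52 (95% interval -1.18 to 0.14, adjusted p = 0.273) and Cd8a, the coreceptor of cytotoxic T cells, by -0.34 (adjusted p = 0.479). The defining markers Cd3d, Cd3e and Cd247 summed to 118 to 186 on the Western diet and to 122 to 298 on starch/oleate; the part of T cell number in the Cd4 difference was not tested. Cd28, a costimulatory receptor, was 1.504-fold lower (-0.59 ± 0.18 (SE), adjusted p = 0.0231) and lost its call without any 1 of starch/oleate library 1, and Western libraries 3 and 6.

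Tcf7, a transcription factor gene of T cells, was called as higher (1.60 ± 0.56 (SE), adjusted p = 0.0455), but 1140 in Western library 2 stood against 45.2 in the median Western library. Without that library the difference was -0.46 (adjusted p = 0.528), and leaving out any 1 of 7 starch/oleate libraries (1, 3, 4, 5, 7, 8 or 9) also ended the call. B cell genes (16), regulatory T cell and checkpoint genes (12) and mast cell genes (5) held no call in either direction, with medians of -0.20, -0.15 and -0.24. Of all genes tested 16.9% were called. Ms4a1, the B cell antigen CD20, differed by -0.13 (interval -0.97 to 0.71), and Kit, the growth factor receptor of mast cells, by -0.24 (interval -0.66 to 0.19). The 7 B cell and lymph node markers summed to between 297 and 1675 on the Western diet and between 306 and 1192 on starch/oleate.

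Receptors for interleukins were lower in 6 of 31 and higher in 1, with a median of -0.24. The shares over all genes tested were 10.4% lower and 6.52% higher. Without Western library 2 the list held 2 lower and 1 higher, beside 28 lower and 31 higher over all 490 genes. Il12rb2, the receptor chain through which interleukin 12 drives type 1 responses, had the smallest p-value of the list. It ranged from 34.5 to 76.1 (median 65.5) on starch/oleate, from 9.95 to 44.1 (median 32.1) on the Western diet and from 10.7 to 26.02 (median 17.7) on chow. Its Western level was 1.93-fold lower (-0.95 ± 0.21 (SE), adjusted p = 0.00156), and the ranges overlapped at 1 starch/oleate library. The lowest Western count, 9.95, and the chow median, 17.7, were at the level of the negative probes (highest count 21). Il21r, the receptor for interleukin 21, was 1.85-fold lower (-0.89 ± 0.26 (SE), adjusted p = 0.0167), a call lost with scaling to the positive controls, the control ratio as a covariate or the libraries high in epithelial genes left out (adjusted p up to 0.144). Il10rb and Il17ra, chains of the receptors for interleukins 10 and 17, were 1.39-fold and 1.304-fold lower (adjusted p = 0.0163 and 0.0167), and neither was called without Western library 2 (adjusted p = 0.0554 and 0.056).

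The endothelial gene Cdh5 and the progenitor gene Cd34 were higher on the Western diet. Cdh5, the cadherin that joins endothelial cells, ranged from 408 to 668 (median 561) on the Western diet, from 247 to 420.4 (median 312) on starch/oleate and from 578 to 1119 (median 832) on chow. It was lowest on starch/oleate, with 1 Western library below the highest starch/oleate library, and the Western level was 1.72-fold higher (0.79 ± 0.16 (SE), adjusted p = 0.000624; above the starch/oleate mean in 7 of 7 libraries). Both diets were below chow, with differences of -1.35 on starch/oleate (adjusted p = 2.8e-09) and -0.56 on the Western diet (adjusted p = 0.0059). Cd34, a surface glycoprotein of progenitor cells and capillary endothelium, showed another pattern. Its counts were 4554 to 7098 (median 6052) on the Western diet, 2786 to 4775 (median 3924) on starch/oleate and 2509.8 to 4970.4 (median 4028) on chow. The Western level was 1.496-fold above starch/oleate (0.58 ± 0.12 (SE), adjusted p = 0.00062), with the ranges overlapping at their edges, while starch/oleate and chow differed by -0.0053 (adjusted p = 0.973).

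Itga6, the laminin-binding integrin alpha 6, was 1.48-fold higher (0.56 ± 0.15 (SE), adjusted p = 0.00764), a call lost with the control ratio as a covariate (adjusted p = 0.0575). Icam2, an adhesion molecule of endothelium, was 1.35-fold higher (0.43 ± 0.15 (SE), adjusted p = 0.0398) and lost its call in 11 of 16 fits with a library left out (starch/oleate libraries 1, 3, 4, 7, 8 and 9, and Western libraries 1, 3, 5, 6 and 7). Pecam1, the junction protein CD31, differed by 0.38 (adjusted p = 0.0854) and did not pass. The 3 markers Pecam1, Cdh5 and Icam2 summed to 1958 to 3498 on the Western diet (median 3174), to 1510.4 to 2596 on starch/oleate (median 2187) and to 2754 to 5128 on chow (median 3704). In the wider list of 31 matrix, TGF beta and vessel genes 4 were higher (Smad3, Icam2, Cdh5 and Itga6) and 2 lower (Plaur and Itgal), with a median of -0.10. Among all genes tested 6.52% were higher and 10.4% lower.

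Smad3, which carries the TGF beta signal into the nucleus, was 1.27-fold higher (0.35 ± 0.070 (SE), adjusted p = 0.00062), at 579 to 862 (median 709.6) on the Western diet and 519 to 592 (median 569) on starch/oleate. The ranges overlap slightly, and the call was lost with scaling to the positive controls (adjusted p = 0.165). Tgfbr1, the receptor that phosphorylates Smad3, differed by -0.34 (adjusted p = 0.0622) and did not pass. Plaur, the receptor for urokinase, was 1.799-fold lower (-0.85 ± 0.21 (SE), adjusted p = 0.00551), with a lone low library in each diet (108 in Western library 2 and 307 in starch/oleate library 6), and lost its call with scaling to the positive controls. Its ligand gene Plau differed by -0.12 (95% interval -0.40 to 0.15), and Lair1, an inhibitory receptor for collagen, by -0.30 (interval -0.83 to 0.24). Itgal, the leukocyte integrin chain of LFA-1, was 1.63-fold lower (-0.70 ± 0.19 (SE), adjusted p = 0.00813), a call lost with scaling to the positive controls, the control ratio as a covariate or the libraries high in epithelial genes left out.

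Of the 5 lipid handling and adipocyte genes Pparg and Cd1d1 were higher on the Western diet and none was lower, with a median of 0.70. The shares over all genes tested were 6.52% higher and 10.4% lower. Pparg ranged from 343 to 783 (median 569) on the Western diet, from 271 to 421 (median 379) on starch/oleate and from 633 to 1826 (median 883) on chow. All Western libraries but 1 lay above every starch/oleate library, and the level was 1.63-fold higher (0.70 ± 0.15 (SE), adjusted p = 0.00156). Both diets were below chow in Pparg, with differences of -0.79 on the Western diet (adjusted p = 0.000177) and -1.49 on starch/oleate (adjusted p = 9.74e-11).

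Cd1d1, a lipid-presenting molecule seen by natural killer T cells and abundant in adipocytes, was 1.63-fold higher (0.71 ± 0.21 (SE), adjusted p = 0.0174), ranging over 1926 to 4550.1 (median 3061) on the Western diet, 1051 to 2848 (median 2051) on starch/oleate and 5643 to 13758 (median 11433) on chow. The 2 fat-rich diets overlapped and both lay below every chow library. The Cd1d1 call was lost without either of Western libraries 1 and 5 (adjusted p up to 0.0606) and with the control ratio as a covariate. Cfd, the adipocyte protease adipsin, differed by 0.73 with a 95% interval of -0.16 to 1.62 (adjusted p = 0.257), and its counts ran from 4135 to 8851 (median 7195) on the Western diet and from 1089 to 7957 (median 3518) on starch/oleate. The Cfd ranges overlap. Cd36, the fatty acid transporter, differed by -0.36 (adjusted p = 0.0771), with 18964 in Western library 2 against 54982 in the median Western library. The defining markers Cfd, Pparg and Cd36 summed to 23954 to 65501 on the Western diet (median 62336), the lowest in Western library 2, to 53011 to 73992 on starch/oleate (median 70209) and to 83966 to 303890 on chow. The sum was thus lower on the Western diet at the median, opposite to Pparg, and the ranges overlapped.

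Il1a, the interleukin 1 alpha gene, was the only one of 26 inflammatory cytokine genes called, beside 16.9% of all genes tested. Its counts ranged from 9.03 to 29.3 (median 20.2) on starch/oleate and from 2.79 to 10.2 (median 5.69) on the Western diet, where the median lay below the mean of the negative probes (7.51). The log2 difference of -1.67 ± 0.31 (SE), adjusted p = 0.000359 therefore sets a low count against background, and gives no size for the Western level. Tnf differed by -0.38 (interval -0.90 to 0.15), Il1b by -0.56 (interval -1.51 to 0.39) and Il6 by -0.14 (interval -0.69 to 0.40), and none passed. Il1b and Il6 had lone high values of 161 and 19.9 in starch/oleate library 1, and without it their differences were -0.037 and 0.0024. At 19.9 or less, Il6 on starch/oleate was at the level of the negative probes (highest count 21).

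Hif1a, the oxygen-regulated transcription factor whose target motif was searched for above, was 1.403-fold higher on the Western diet (0.49 ± 0.095 (SE), adjusted p = 0.000568). It ranged from 787 to 1334 (median 1111) on the Western diet, from 682 to 931 (median 773) on starch/oleate and from 718 to 1075 (median 1004) on chow. The diets overlapped, and starch/oleate was below chow with a difference of -0.31 (adjusted p = 0.00347). The call between the diets was lost with scaling to the positive controls (adjusted p = 0.0594). Tfrc, whose window held the ACGTG motif, was lower on the Western diet, and a link between these genes was not tested. Of 39 toll-like receptor and NF-kappa B genes 2 were higher (Traf4 and Nfkbiz) and 2 lower (Ly96 and Irak4), with a median of -0.01. Among all genes tested the shares were 6.52% and 10.4%. Traf4, an adaptor of receptor signalling, was 1.599-fold higher (0.68 ± 0.16 (SE), adjusted p = 0.00294), at 34.8 to 82.5 (median 47.4) on the Western diet and 22.6 to 44.1 (median 34.6) on starch/oleate. Those ranges overlap, yet Traf4 kept its call under every setting run. Nfkbiz, an inducible nuclear regulator of NF-kappa B, was 1.35-fold higher (0.44 ± 0.12 (SE), adjusted p = 0.0138), a call lost with scaling to the positive controls or the control ratio as a covariate. Irak4, the kinase below the toll-like receptors, was 1.21-fold lower (adjusted p = 0.0454) and lost its call with TMM scaling and in 11 of 16 fits with a library left out (starch/oleate libraries 1, 2, 3, 4, 5 and 8, and Western libraries 1, 2, 3, 5 and 6).

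The S100a9 call was lost without starch/oleate library 1. S100a9, a calcium-binding protein of neutrophil granules, was 7.95-fold lower on the Western diet (-2.99 ± 0.86 (SE), adjusted p = 0.016), the lowest difference of all calls. Starch/oleate library 1 held 1456 scaled counts against 52.5 in the median library of that diet and 31.3 in the median Western library. Ranges overlapped, and without that library the difference was -2.05 and did not pass (adjusted p = 0.081). The call was also lost with the libraries high in epithelial genes left out (adjusted p = 0.0747). Csf3r, the receptor of the neutrophil growth factor, was 1.81-fold lower (-0.86 ± 0.27 (SE), adjusted p = 0.0287), with 349.6 in the same library, and was not called without any 1 of starch/oleate library 1, and Western libraries 1, 2, 5 and 6. These were the 2 calls among 6 neutrophil genes, beside 16.9% of all genes tested.

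Complement genes were higher in 4 of 28 (C4bp, Clu, C6 and Cd59b) and lower in 2 (Cfp and Hc), with a median of 0.06. Of all genes tested 6.52% were higher and 10.4% lower. C4bp, an inhibitor of the classical pathway, and Clu, the chaperone clusterin, had the largest differences of all tested genes, 6.33 (adjusted p = 0.000568) and 3.71 (adjusted p = 0.000526). Western library 2 held 15239 scaled counts of C4bp against a Western median of 22.9, and 173666 of Clu against a Western median of 1774. Without it C4bp differed by 0.68 (adjusted p = 0.659) and Clu by -0.15 (adjusted p = 0.81). Fkbp5, a glucocorticoid-induced chaperone, behaved in the same manner, at 1.07 with the library (adjusted p = 0.0448, 1750 counts there) and 0.21 without it (adjusted p = 0.716); its call was also lost without any 1 of starch/oleate libraries 1, 2, 4, 5, 7, 8 and 9. In all, 9 genes in that library were at least 5 times their highest value in the other 15 libraries.

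**Figure D3:**
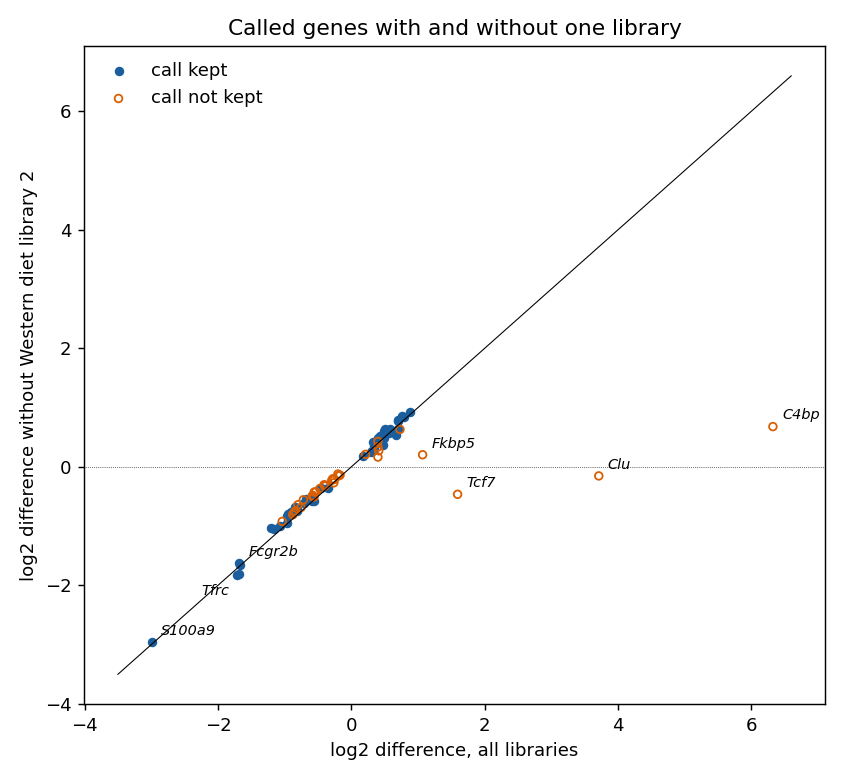
Each point is 1 of the 83 genes called between the diets; the x axis gives the log2 difference with all 16 libraries and the y axis the difference without Western library 2, and the line marks equal values. Filled points (49 genes) kept their call and direction; C4bp, Clu, Tcf7 and Fkbp5 lie far below the line.

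Cfp, properdin, the stabiliser of the alternative pathway made by myeloid cells, was 1.92-fold lower on the Western diet (-0.94 ± 0.24 (SE), adjusted p = 0.00551). It ranged from 359.7 to 1856 (median 806) on the Western diet and from 1338 to 2547 (median 1702) on starch/oleate, and the ranges overlapped through a high Western library. The call was lost with the control ratio as a covariate (adjusted p = 0.0672). Hc, complement component 5, was 2.05-fold lower (adjusted p = 0.0424) and lost its call in 11 of 16 fits with a library left out (starch/oleate libraries 1, 3, 4, 5, 8 and 9, and Western libraries 1, 2, 3, 5 and 6). C6, a component of the membrane attack complex, was 1.84-fold higher (0.88 ± 0.26 (SE), adjusted p = 0.017), a call lost without Western library 1, which held 296 counts (adjusted p = 0.0619), and with scaling to the positive controls or the control ratio as a covariate. Cd59b, which blocks that complex on the cell surface, was 1.63-fold higher (0.70 ± 0.21 (SE), adjusted p = 0.0175) and lost its call with scaling to the positive controls, the control ratio as a covariate or the libraries high in epithelial genes left out. Vtn, vitronectin, another inhibitor of the complex, was 1.69-fold higher (adjusted p = 0.0382) and lost its call in 7 of 16 fits with a library left out (starch/oleate libraries 1, 4, 5 and 8, and Western libraries 1, 5 and 7). C3, the central component, differed by -0.031 (95% interval -0.37 to 0.31), and C9, which forms the pore, by -0.62 (adjusted p = 0.295).

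Cd81, a tetraspanin of many cell types and of fat progenitors, was the only gene whose Western libraries all lay above the starch/oleate libraries (0.204%). Such separation was seen in 4 of the 491 genes (0.815%), the others being Fcgr2b, Tfrc and Ccl8. Its counts ranged from 5536 to 10282 (median 5978) on the Western diet and from 4372 to 5313 (median 5079.9) on starch/oleate, with 6044 to 8070.1 (median 7485) on chow. The level was 1.33-fold higher (0.41 ± 0.11 (SE), adjusted p = 0.00813), and without Western library 2, at 10282, it was not called (adjusted p = 0.056).

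Several gene groups held no call in either direction, beside 16.9% called over all genes tested. Interferon response genes (27) had a median of -0.0038, and none passed; Cxcl10, an interferon-induced chemokine, differed by 0.069 (interval -0.65 to 0.79) and Cxcl9, another, by -0.089 (adjusted p = 0.898). Genes of MHC class II presentation (9) had a median of 0.21 and no call, and H2-Ab1, a class II beta chain, differed by 0.21 (adjusted p = 0.574). MHC class I genes (9), dendritic cell and costimulation genes (15) and epithelial genes (7) had medians of 0.02, -0.03 and -0.34 and no call. Without Western library 2 the interferon and dendritic lists each held 1 call.

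Other signalling lists held shares near the 10.4% lower and 6.52% higher of all genes tested. Of 18 cell death genes Bax, a pore former of mitochondria (-0.26), and Casp8, the protease of death receptors (-0.25), were lower. Of 16 JAK, STAT and SOCS genes the kinase Tyk2 (-0.29) and Stat6, the factor downstream of interleukin 4 (-0.20), were lower and Stat3 (0.22) was higher. None of these 5 calls was stable: they were lost in 13 (Bax), 4 (Casp8), 7 (Tyk2), 12 (Stat6) and 12 (Stat3) of the 16 fits with a library left out.

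**Figure D4:**
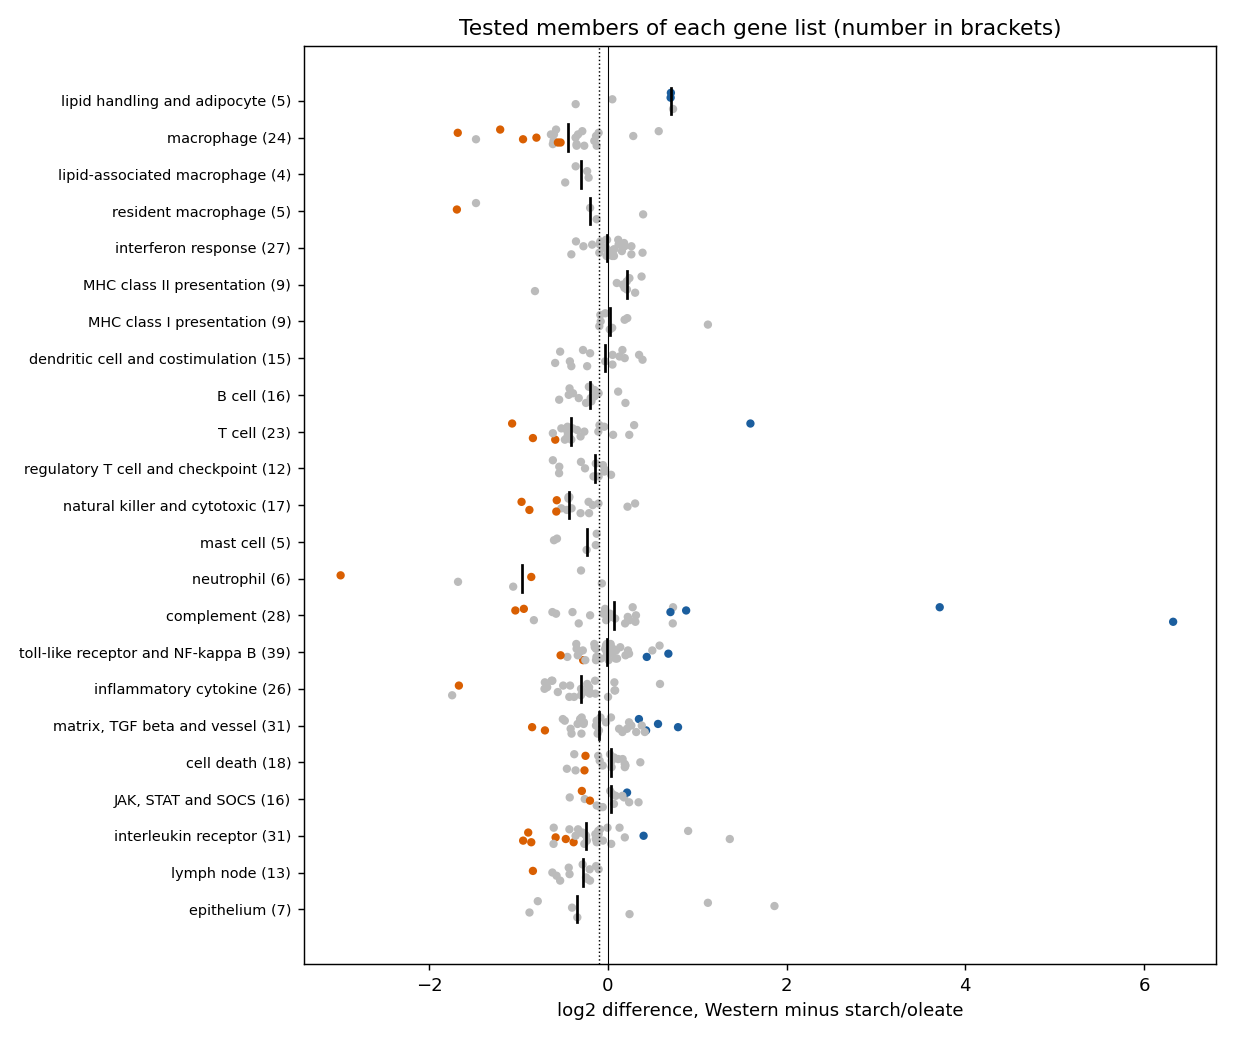
Log2 differences, Western minus starch/oleate, of the tested members of 23 gene lists, 1 point a gene; blue points passed as higher, orange as lower and grey did not pass. Black ticks mark each list's median and the dotted line the median of all genes (-0.10). The macrophage, T cell and natural killer ticks lie to its left. The tick of the lipid handling and adipocyte list lies to its right, at 0.70, though the adipocyte marker sum was lower on the Western diet at the median.

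The genes closest between the diets, among those past the threshold against chow on both, were Ifnar1, C1qbp, Nfkb1, Hfe, Psmb7 and Irak2. Ifnar1, a chain of the type I interferon receptor, ranged from 1191 to 1744 (median 1426) on the Western diet, from 1284 to 1643 (median 1473) on starch/oleate and from 1052 to 1249 (median 1130.0) on chow. The 2 fat-rich diets differed by -0.014 with a 95% interval of -0.15 to 0.12. Nfkb1, the p105 subunit of NF-kappa B, differed by -0.0089 (interval -0.16 to 0.14), and lay above chow by 0.36 on the Western diet and 0.37 on starch/oleate. Irak2, a kinase of the toll-like receptor pathway, differed by -0.0064 (interval -0.19 to 0.18), with differences from chow of -0.52 on the Western diet and -0.51 on starch/oleate. Psmb7, a proteasome subunit, differed by 0.049 (interval -0.090 to 0.19), and C1qbp, a mitochondrial protein that also binds C1q, by -0.0065 (interval -0.15 to 0.14). With TMM scaling the 6 differences became 0.11 to 0.20 and with DESeq2 0.13 to 0.24, and none passed. Ifnar1 and Nfkb1 then no longer passed against chow on starch/oleate (adjusted p = 0.15 and 0.111 with TMM), while with scaling to the positive controls C1qbp, Hfe and Psmb7 passed against chow on neither diet. The rule picked them for narrow intervals near 0, so their closeness is a description.

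**Figure D5:**
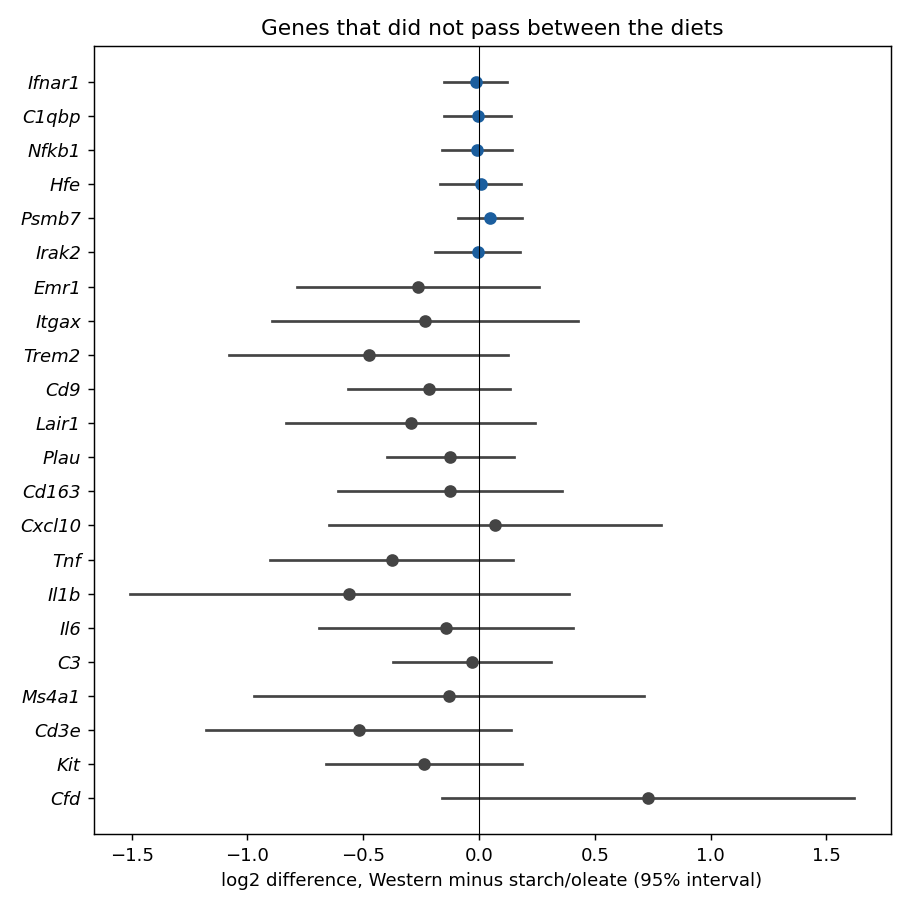
Log2 differences, Western minus starch/oleate, with 95% intervals (lines) for 22 genes that did not pass between the diets. The 6 blue points are the genes closest between the diets, all within 0.19 of 0 at either bound; the grey points are genes named by rule, whose intervals are wider, up to 1.62 for Cfd.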

How the data were processed

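Total RNA of epididymal white fat was measured in 48 samples. The values the authors deposited are raw counts: whole numbers of barcodes for each probe, with totals that differ between samples. The counting software is not given in the sources used here. Probe accessions were matched to RefSeq for names, 558 of 561, and symbols are printed as deposited.

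Counts were divided by each library's geometric mean of the 14 reference genes. All 48 libraries were fitted together with 6 diet means in edgeR 4.0.16 (R 4.3.3, quasi-likelihood test), and the contrasts were two-sided with Benjamini-Hochberg adjustment over 491 genes. Alternatives were TMM scaling, positive-control scaling, no filter on low counts, a stricter filter (mean of 30 or more), DESeq2 1.42.0, only the compared groups, a replicate block, the positive-control ratio as a covariate, libraries high in epithelial genes left out, and each library left out in turn. TMM scaling with Western library 2 left out was added after seeing the data. The fit was tested on simulated counts.

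Members, gene lists and the naming rule were chosen with earlier results of these data known. The rule took the 10 highest and 10 lowest differences, the 5 smallest p-values, up to 3 called members of each list, a set of fat and immune genes, and the 6 genes closest between the diets. It selected 72 genes, of which 68 are named, besides 18 (among them Cd34, Abcb10, Clec5a, Cd97, Cd81, Fcgr1 and Pecam1) chosen after their values were seen. Of the selected genes 1 is not reported here. Lists are described by counts and medians, with no set test. Libraries of different diets that share a replicate number were treated as unpaired in the main fit. The correlation of their deviations ran from -0.195 to 0.635 over 7 pairs (mean 0.246). Over 56 pairs with different numbers it ran from -0.467 to 0.597 (mean -0.0202). These values do not settle whether equal numbers mark a pairing or something else shared. Among all 1128 pairs of the 48 libraries none agreed within sampling noise (lowest chi-square 5.29 per degree of freedom). The labels name separate samples but not whether each was a separate mouse's only extract, so p-values measure the spread between these samples. Counts at the level of the negative probes (mean 7.51, maximum 21) cannot be told from background.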

Additional observations from a re-analysis of the deposited data

Results flagged for a closer look

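Among 172 pairs of a named gene and a diet, 31 held 1 library set apart from the others of its diet by Dixon's criterion, which chance meets in about 1 of 20 groups. Many of these genes were named for their values in the same libraries, and the pairs share libraries, so that rate is no yardstick for the 31. Of these, 13 were in Western library 2. It was highest in C4bp (15239 scaled counts), Clu (173666), Tcf7 (1140), Fkbp5 (1750), Kit (122), C1qbp (1299.5) and Cd81 (10282). It was lowest in Icam2 (183), Plaur (108), Cd36 (18964), Tlr4 (262), Irak2 (486) and Stat6 (933). Other Western libraries stood apart upward in Marco (library 4, 165), C6 (library 1, 296), Cxcl9 (library 5, 669) and Bax (library 4, 776), and downward in Stat3 (library 6, 1871).

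Of the starch/oleate libraries, library 1 was set apart upward in S100a9 (1456), Csf3r (349.6), Il1b (161) and Il6 (19.9). Library 6 was low in Cd97 (1531), Lilrb4 (4721) and Plaur (307) and high in C6 (178). Library 5 was high in Cd4 (139) and Cd8a (31.3), library 8 in Marco (526.2), library 3 in Stat3 (2064) and library 2 in Clu (4349). The part of cell composition in these values was not tested.

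Fcgr2b and, with reference gene scaling, Cd97 lay on opposite sides of chow on the 2 diets, each past the threshold. The starch/oleate side of Cd97 (0.24) turned to -0.035 with TMM scaling and -0.101 with DESeq2, and passed with neither. The difference itself, Western minus starch/oleate, was -1.68 for Fcgr2b and -0.55 for Cd97 on the log2 scale, and passed for both. Fcgr2b was lower in 7 of 7 Western libraries than the starch/oleate mean, and so was Cd97.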

How the results depend on the processing

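The count of 83 genes fell to 24 with positive-control scaling (9 higher, 15 lower) and to 21 with the control ratio as a covariate (11 higher, 10 lower). The 32 higher genes became 55 with TMM scaling, 68 with DESeq2 and 20 with the replicate block, and the 51 lower genes became 23 without the libraries high in epithelial genes and 26 with TMM scaling and Western library 2 left out. Leaving out single libraries gave 52 to 116 genes, 20 to 37 higher and 28 to 80 lower, and 160 to 225 against chow on the Western diet and 276 to 306 on starch/oleate. Against chow, DESeq2 gave 97 higher and 67 lower genes on the Western diet (161 and 39 with reference genes) and 155 and 135 on starch/oleate (237 and 59). Lower genes against chow became 17 and 35 on the 2 diets with positive-control scaling, 114 on starch/oleate with TMM scaling, and 70 on the Western diet with TMM scaling and Western library 2 left out. Counts under the other settings stayed within 1.5 times. Tcf7 turned to -0.40 without the libraries high in epithelial genes, -0.46 without Western library 2 and -0.38 with TMM scaling as well, and Clu to -0.012 with DESeq2, -0.15 without that library and -0.067 with TMM scaling as well, with single libraries left out giving -0.46 to 1.785 for Tcf7 and -0.15 to 3.94 for Clu; these genes rest on that library by their values, and for the other changes the cause was not tested. With the replicate number as a block 20 genes were higher and 39 lower, and 57 of the 83 genes kept their call. The mean correlation was 0.25 over 7 pairs with the same number and -0.02 over 56 with different numbers. Whether libraries of the same number share a pairing was not tested. Counts near the negative probes limit Il1a and Gzmb.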
